A study of Mus musculus with 12 samples.

Results

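The growth hormone receptor gene Ghr, the 4 Janus kinase genes Jak1, Jak2, Jak3 and Tyk2, and the 4 tyrosine phosphatase genes Ptpn1, Ptpn2, Ptpn6 and Ptpn11 were followed across genotype and growth hormone (GH). These 9 genes were chosen by symbol, with earlier results of these data known. They are among 18193 genes with a probe set that the platform annotation gives to 1 symbol. They had 22 such probe sets among the 45101 on the array. For each gene the main probe set was the one with the highest mean signal over the 12 arrays, and the others are given beside it. Another 2 probe sets, shared by Jak3 and Insl3, were not used.

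The study's title places the samples in skeletal muscle, and 12 mouse arrays fell into 4 groups of 3. The groups were wild type (WT), mice lacking Stat5a and Stat5b (KO), WT treated with GH and KO treated with GH. The sample titles give each array its own number. The titles do not say what it stands for, and it was taken as that of a separate animal, so every p-value rests on that. In the titles of all GH arrays the number follows an M, and in those of the other arrays it does not. Strain, age, sex, GH dose, time after GH and the promoter driving any recombinase are not given in the sources used here. The treatment note names blood cells as the place of the deletion, which differs from the muscle of the title. Markers of skeletal muscle were bright on every array, with a median percentile of 99.96 among probe set means. Signal of Stat5b in KO was 15.2% of WT without GH and 20.2% with GH, and for Stat5a it was 40.6% and 40.2%.

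GH acts by binding a receptor pair in the cell membrane, which brings together the JAK2 molecules held on the receptor tails. JAK2 then phosphorylates the receptor, and STAT5 docks there, is phosphorylated in turn and moves to the nucleus, where it switches on genes such as Igf1, Socs2 and Cish. Tyrosine phosphatases and the SOCS proteins switch the signal off, and JAK1 and TYK2 serve many other cytokine receptors, among them those of the interleukin 6 and interferon families.

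The arrays with and without GH also differed in measures of RNA labelling. The geometric mean signal of the poly(A) spike controls was 84.0 to 111 on the arrays without GH and 265 to 319 on those with GH. The ratio of 3′ to 5′ beta actin signal was 0.805 to 0.864 without GH, 0.887 to 0.932 in WT with GH and 0.962 to 1.01 in KO with GH. GH treatment and this difference between array sets cannot be told apart, and the actin ratio also separated both GH-treated genotypes. The ratio of 3′ to 5′ Gapdh signal did not follow the pattern of the actin ratio. It was 0.835 to 0.877 in WT, 0.834 to 0.859 in KO and 0.842 to 0.860 in WT with GH. In KO with GH it was lowest, at 0.795 to 0.830. Pearson correlation between replicate arrays was 0.978 to 0.989. WT 1 and KO 3 had the lowest array weights, at 0.319 and 0.421.

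All 9 genes passed the filter on low signal. Without GH, 0 of 9 rose or fell in KO against WT at an adjusted p under 0.05 (limma, adjusted over all 12654 genes kept). Here 1.45% of all genes were called, and 2 members had an unadjusted p under 0.05. With GH, 2 of 9 rose in KO against WT and 0 fell, beside 4.53% of all genes called (2.42% rose and 2.11% fell). GH was followed by a rise of 2 of 9 in WT and of 4 of 9 in KO, with 0 falls. Of all genes, 19.1% were called for GH in WT (7.33% rose and 11.8% fell). For GH in KO 24.3% were called (8.93% rose and 15.4% fell). The interaction of genotype and GH, which is the GH difference in KO minus that in WT, was called for 0 of 9 genes, beside 0.933% of all. It had an unadjusted p under 0.05 for 2 of 9. The mean of both genotype differences was called for 0 of 9, beside 5.34% of all genes. It had an unadjusted p under 0.05 for 4 of 9. The shares of all genes given here are for the adjusted threshold. None was taken at the unadjusted one, so the unadjusted counts have no background beside them. The comparisons share arrays, so their counts are not independent of each other.

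**Figure D1:**
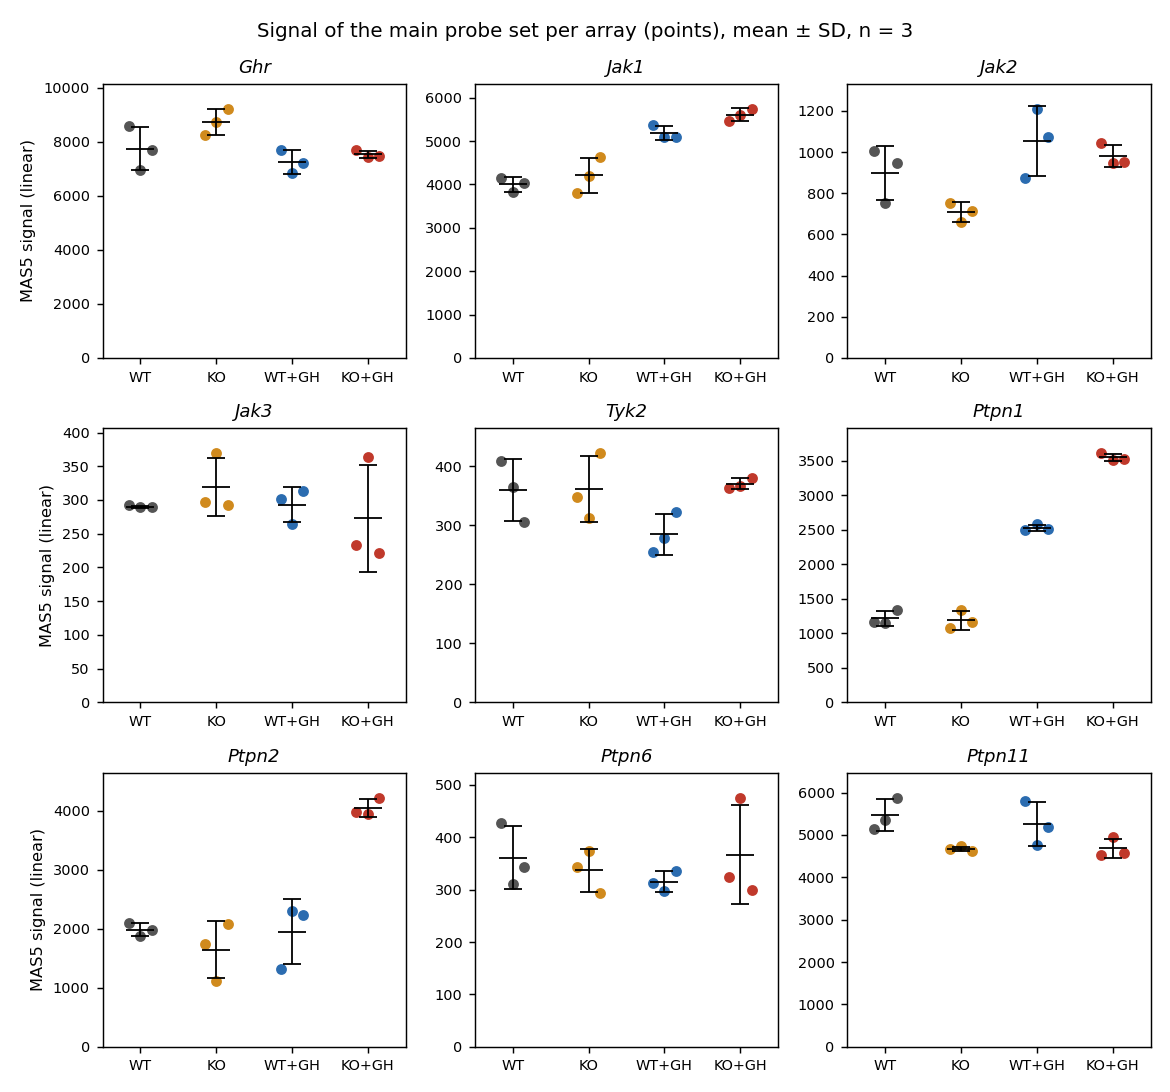
Signal of the main probe set on each array (points, MAS5 signal on a linear scale starting at 0) for the 9 genes in WT and KO, each without and with GH, with the mean and SD of 3 arrays. Ptpn1 stands at 2491 to 2578 in WT with GH and 3501 to 3608 in KO with GH, above all arrays without GH, and Ptpn2 stands apart in KO with GH alone.

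The median log2 difference of the 9 genes was -0.03 without GH and 0.11 with GH for KO against WT, beside -0.00 and -0.02 over all genes. For the GH comparisons it was -0.06 (WT) and 0.09 (KO), beside -0.06 in both over all genes. The 3 arrays of each group did not overlap for 2 of 9 members in KO against WT without GH, where 13.2% of all genes were apart. They did not overlap for 4 of 9 members with GH, where 30% of all genes were apart. For GH the groups were apart for 2 of 9 in WT and 5 of 9 in KO, beside 34.3% and 44.4% of all genes. Since the samples are whole tissue, a lower level in each cell and fewer cells of a type cannot be told apart.

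The 250 bases before the start site were taken from RefSeq (GRCm38.p6) for the 8 genes other than Ptpn2, in 9 windows. Both strands were searched for TTCNNNGAA (the STAT site), TGACGTCA (the CRE site), GGGCGG (the GC box) and GCGGGGGCG (an EGR-type site). Among all 32851 windows, 7.02% held the STAT site, 1.55% the CRE site, 32.7% the GC box and 2.57% the EGR-type site. None of the 9 member windows held TTCNNNGAA, which says only that these letters are not in these windows. The windows of the 3 of these 8 genes that rose with GH are shown because their transcripts moved, with matches in capitals. The Ptpn1 window, chr2:167932077-167932326 on the plus strand, has 75.2% G and C, beside a median of 52.4% over all windows, and lies within the outer bounds of the annotated gene. Its capitals mark a GC box overlapping an EGR-type match, which start at -69 and -68 from the start site, and a GC box at -11. The Jak1 stretch, chr4:101265283-101265473 on the minus strand, is the upstream 191 bases of its window, and its capitals mark a CRE site at -101. The Jak2 window, chr19:29251553-29251802 on the plus strand, has 80.8% G and C, and its capitals mark GC boxes at -242 and -92. The same letters stood before other genes too: the CRE site in the window of Ptpn11, the EGR-type site in those of Ghr and Ptpn11, neither of them called by its main probe set, and GC boxes in those of all 8 genes.
Ptpn1: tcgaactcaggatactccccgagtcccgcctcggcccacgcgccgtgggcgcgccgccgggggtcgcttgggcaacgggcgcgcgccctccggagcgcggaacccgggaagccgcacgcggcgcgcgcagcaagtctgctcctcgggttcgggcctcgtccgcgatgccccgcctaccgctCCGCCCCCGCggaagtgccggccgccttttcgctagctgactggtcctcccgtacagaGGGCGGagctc
Jak1: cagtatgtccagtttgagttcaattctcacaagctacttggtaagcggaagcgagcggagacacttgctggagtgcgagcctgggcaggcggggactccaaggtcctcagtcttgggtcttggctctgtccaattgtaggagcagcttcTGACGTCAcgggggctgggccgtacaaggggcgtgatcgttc
Jak2: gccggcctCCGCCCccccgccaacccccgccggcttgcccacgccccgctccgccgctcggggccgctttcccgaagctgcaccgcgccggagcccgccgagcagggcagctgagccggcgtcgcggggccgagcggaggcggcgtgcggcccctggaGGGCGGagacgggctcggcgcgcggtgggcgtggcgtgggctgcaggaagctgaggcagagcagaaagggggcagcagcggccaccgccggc

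Ghr encodes the receptor itself. Its main probe set, 1417962_s_at, read 8572, 6977 and 7698 in WT and 8263, 8730 and 9235 in KO. With GH it read 7716, 6831 and 7215 in WT and 7685, 7453 and 7476 in KO. Every KO array with GH lay below every KO array without it, while the groups overlapped in the other GH comparison and in both genotype comparisons. The log2 difference for GH in KO was -0.21 ± 0.083 (SE), which missed the threshold at an adjusted p of 0.0772 (95% interval -0.39 to -0.03). Without WT 1 in the fit the adjusted p was 0.0321, and leaving out other single arrays gave up to 0.194. In WT it was -0.09 ± 0.083, with an adjusted p of 0.486. For KO against WT the log2 difference was 0.18 without GH and 0.06 with GH, at adjusted p of 0.430 and 0.807.

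The other Ghr probe sets leaned the same way in KO. Probe set 1451501_a_at read 3546, 3277 and 2957 in KO and 2431, 2400 and 2438 in KO with GH. These groups did not overlap, and the probe set fell by 0.42 on the log2 scale with an adjusted p of 0.00425 over 34945 probe sets. Probe set 1451871_a_at differed by -0.33, with an adjusted p of 0.0637, and its groups were apart too. For GH in KO the groups were thus apart for 3 of 3 Ghr probe sets, and 1 of 3 was called. Of all genes kept, 44.4% were apart in this comparison, and the 3 probe sets were read on the same arrays. The interaction was negative for all 3, from -0.30 to -0.12, and called for none, with unadjusted p of 0.0307 to 0.330.

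Jak1 encodes a kinase shared by interleukin 6, interferon and many other cytokine receptors. Its main probe set, 1433805_at, read 4158, 3824 and 4025 in WT and 3807, 4194 and 4624 in KO. It read 5370, 5096 and 5092 in WT with GH and 5454, 5612 and 5751 in KO with GH. All 6 GH arrays were above all 6 others, and the KO arrays with GH were above the WT arrays with GH. Jak1 rose with GH 1.29-fold in WT, a log2 difference of 0.37 ± 0.078 with an adjusted p of 0.00400. In KO it rose 1.33-fold, a log2 difference of 0.42 ± 0.078 with an adjusted p of 0.00142. The genotype difference with GH was 0.11 ± 0.078, with an adjusted p of 0.531, although the groups did not overlap. The interaction was 0.04 ± 0.110 (95% interval -0.19 to 0.28).

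The other Jak1 probe sets differed in how much they moved. In WT, GH raised 1433803_at by 0.54 and 1433804_at by 1.04 on the log2 scale, with adjusted p of 0.00292 and 0.000142. In KO, 1433804_at rose by 0.63 (adjusted p 0.00522), and 1433803_at differed by 0.25 with an adjusted p of 0.132. Their interactions were -0.29 and -0.41, against 0.04 for the main probe set, and none was called. With GH, both were lower in KO than in WT, opposite to the main probe set. The differences were -0.15 for 1433803_at and -0.26 for 1433804_at, with adjusted p of 0.601 and 0.443, and the groups of 1433804_at did not overlap. With the actin ratio as a covariate the main probe set's difference was 0.26 in WT and 0.22 in KO, with adjusted p of 0.284 and 0.672. With each array centred on its median over all probe sets, the difference in WT was 0.19 and its adjusted p was 0.0772.

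Jak2 encodes the kinase that the GH receptor carries. Its main probe set, 1421065_at, read 1004, 753 and 945 in WT and 753, 660 and 715 in KO. With GH it read 874, 1212 and 1075 in WT and 1043, 945 and 954 in KO. The KO arrays without GH were among the low ones, below every KO array with GH, and the range of WT with GH overlapped that of WT. Jak2 rose with GH in KO by 1.37-fold, a log2 difference of 0.45 ± 0.127 with an adjusted p of 0.0171. In WT the difference was 0.22 ± 0.127, with an adjusted p of 0.254. The interaction was 0.24 ± 0.179, with an adjusted p of 0.710, so the GH differences of the genotypes were not shown to be unequal. For KO against WT the log2 difference was -0.33 ± 0.127 without GH (adjusted p 0.309) and -0.09 ± 0.127 with GH (adjusted p 0.799).

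The other Jak2 probe set, 1421066_at, read 694, 796 and 765 in WT, 665, 561 and 721 in KO, 930, 988 and 980 in WT with GH and 998, 1057 and 1164 in KO with GH. All its GH arrays stood above all others. Its log2 rise with GH was 0.35 in WT and 0.71 in KO, with adjusted p of 0.0476 and 0.000409. The rise of the main probe set in KO depended on single arrays and on the scaling: its adjusted p was up to 0.0714 when 1 array was left out (KO 2 or the first KO array with GH ended the call). It was 0.111 with median centring, and with the actin ratio as a covariate the difference turned to -0.02 (adjusted p 0.988).

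Jak3 and Tyk2 were not called in any of the 6 comparisons. Jak3 encodes the kinase paired with the common gamma chain of lymphocyte cytokine receptors, and probe set 1425750_a_at read 289 to 292 in WT, 293 to 370 in KO, 264 to 314 in WT with GH and 221 to 364 in KO with GH. The WT and KO arrays without GH did not overlap by a narrow margin, with a log2 difference of 0.12 ± 0.167. Tyk2 encodes a kinase of interferon and interleukin 12 receptors, and 1417306_at read 305 to 408 in WT, 312 to 422 in KO, 254 to 322 in WT with GH and 363 to 381 in KO with GH. With GH every KO array was above every WT array, at 0.36 ± 0.142 and an adjusted p of 0.209. The difference for GH in WT was -0.31 ± 0.142, with an adjusted p of 0.146. The other Tyk2 probe set, 1432576_at, was dim, from 11.2 to 127 over the arrays.

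Ptpn1 encodes PTP1B, a phosphatase on the endoplasmic reticulum that acts on JAK2, TYK2 and the insulin receptor. Its main probe set, 1417068_a_at, read 1158, 1144 and 1340 in WT and 1070, 1330 and 1159 in KO. It read 2491, 2578 and 2506 in WT with GH and 3608, 3501 and 3527 in KO with GH. WT and KO overlapped without GH, and each GH group stood apart from all other groups, with KO with GH the highest. The mean signal was 1214 ± 109 in WT, 1186 ± 132 in KO, 2525 ± 46.6 in GH-treated WT and 3545 ± 55.9 in GH-treated KO (SD, n = 3).

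GH was followed by a 2.06-fold rise of Ptpn1 in WT, a log2 difference of 1.04 ± 0.090 with an adjusted p of 2.13e-06. In KO the rise was 2.96-fold, a log2 difference of 1.56 ± 0.090 with an adjusted p of 2.37e-08. Both were called under all 26 alternatives tried. With GH, KO stood 1.40-fold above WT for Ptpn1, a log2 difference of 0.49 ± 0.090 with an adjusted p of 0.00399. Without GH the difference was -0.03 ± 0.090 (95% interval -0.23 to 0.16). The interaction was 0.52 ± 0.127 and missed the threshold, with an adjusted p of 0.0811. It was called in 2 of 25 alternatives, over which its adjusted p ran from 0.0325 (without KO 2) to 0.434. Over both conditions the mean genotype difference was 0.23 ± 0.064, with an adjusted p of 0.0532. It was called in 7 of 25 alternatives, with adjusted p from 0.0233 to 0.501. Leaving out WT 3 gave 0.0274 and leaving out KO 1 gave 0.0240, while leaving out other single arrays gave up to 0.128.

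The other Ptpn1 probe set, 1438670_at, read 437, 636 and 689 in WT, 746, 453 and 463 in KO, 789, 800 and 787 in WT with GH and 1271, 966 and 1113 in KO with GH. Its GH groups were in the same order as those of the main probe set, with no overlap. It rose with GH in KO by 1.01 on the log2 scale, with an adjusted p of 0.00163. In WT it differed by 0.44 (adjusted p 0.148), and KO against WT with GH by 0.47 (adjusted p 0.257). With the actin ratio as a covariate, the difference of the main probe set between the GH-treated genotypes was 0.35 with an adjusted p of 0.342.

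Ptpn2 encodes TC-PTP, the close relative of PTP1B, which acts on JAK1, JAK3 and on STAT proteins in the nucleus. Its main probe set, 1438562_a_at, read 2096, 1872 and 1989 in WT and 1743, 1123 and 2076 in KO. It read 1316, 2296 and 2242 in WT with GH and 3983, 3947 and 4226 in KO with GH. The first 3 groups overlapped, KO 2 and the first WT array with GH were the low ones, and KO with GH stood apart from all of them. The mean signal was 1986 ± 112 in WT, 1647 ± 484 in KO, 1952 ± 551 in GH-treated WT and 4052 ± 152 in GH-treated KO (SD, n = 3).

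Ptpn2 rose with GH in KO by 2.51-fold, a log2 difference of 1.33 ± 0.214 with an adjusted p of 0.000723. In WT the difference for GH was -0.07 ± 0.214, with an adjusted p of 0.859 (95% interval -0.53 to 0.40). With GH, KO stood 2.12-fold above WT for Ptpn2, a log2 difference of 1.09 ± 0.214 with an adjusted p of 0.00897. Without GH the difference was -0.31 ± 0.214, with an adjusted p of 0.651. The interaction of 1.40 ± 0.303 missed the threshold, with an adjusted p of 0.0528. It was called in 11 of 25 alternatives, over which its adjusted p ran from 0.0155 to 0.329, among them the fits without KO 2 (0.0463), without KO 3 (0.0155) and without the GH-treated WT array 2 (0.0410). In the fit of all 34945 probe sets, the interaction of the main Ptpn2 probe set was past the threshold, with an adjusted p of 0.0448.

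The other probe sets of Ptpn2 also had their highest group mean in KO with GH, but leaned up with GH in WT as well. Probe set 1417140_a_at read 817, 692 and 554 in WT, 652, 765 and 610 in KO, 736, 801 and 744 in WT with GH and 1326, 1234 and 1406 in KO with GH. Again KO with GH stood apart and the other groups overlapped. It was higher in KO than in WT with GH by 0.78 (adjusted p 0.00284) and rose with GH in KO by 0.95 (adjusted p 0.000156). Its interaction was 0.79 (adjusted p 0.0901), and its mean genotype difference of 0.38 was called (adjusted p 0.0354). Dim probe sets 1425197_at and 1425198_at differed by 0.83 and 0.65 for GH in KO, with adjusted p of 0.0292 and 0.127. Their interactions were 0.52 and 0.22, with adjusted p of 0.720 and 0.917. For GH in WT, 1417140_a_at differed by 0.16, 1425197_at by 0.31 and 1425198_at by 0.43, none of them called, against -0.07 for the main probe set. The KO arrays with GH did not overlap the KO arrays or the WT arrays with GH for any of the 4 probe sets. Of all genes kept, 44.4% and 30% were apart in these comparisons, and the 4 probe sets were read on the same arrays. With the actin ratio as a covariate, the main probe set's difference was 0.88 for GH in KO and 0.86 for KO against WT with GH, with adjusted p of 0.534 and 0.370.

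**Figure D2:**
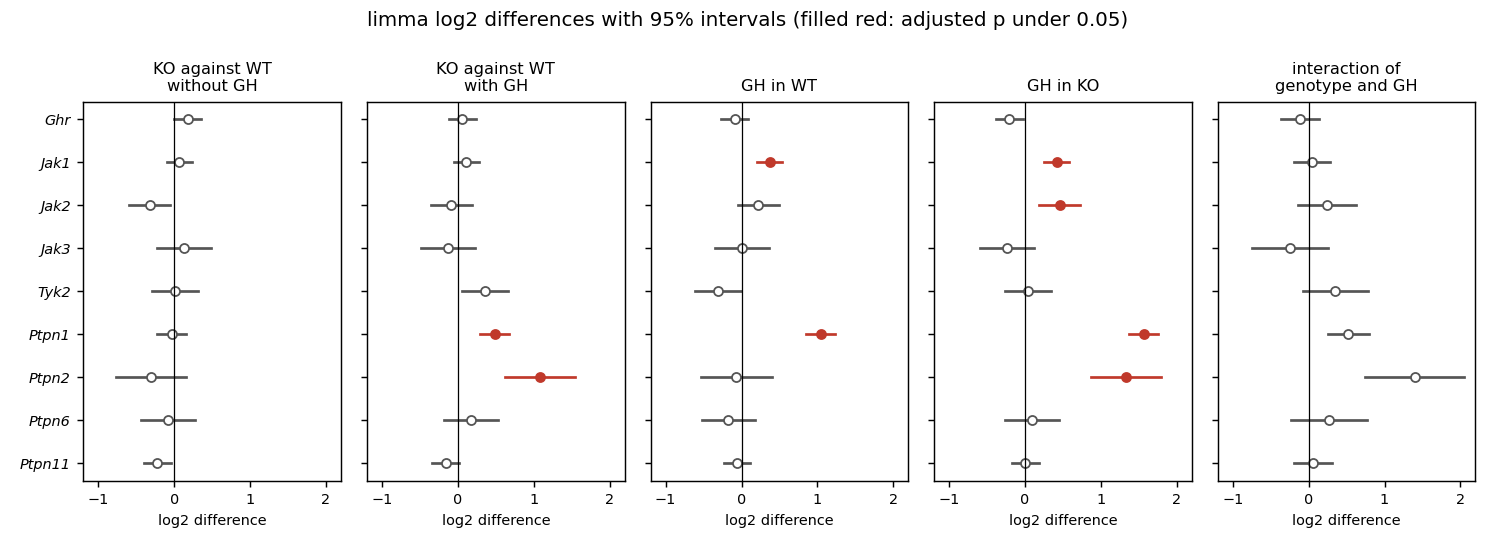
Log2 differences of the 9 genes from limma (points) with 95% intervals, on the log2(signal + 25) scale, in 5 comparisons, filled red where the adjusted p is under 0.05. Red points are Ptpn1 and Ptpn2 for KO against WT with GH, Jak1 and Ptpn1 for GH in WT, and Jak1, Jak2, Ptpn1 and Ptpn2 for GH in KO.

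Ptpn6 and Ptpn11 were not called in any of the 6 comparisons with their main probe sets. Ptpn6 encodes SHP1, a phosphatase best known from blood cells, and 1456694_x_at read 312 to 427 in WT, 293 to 375 in KO, 297 to 336 in WT with GH and 300.1 to 476 in KO with GH. All groups overlapped, and the largest of the 4 differences was 0.18 ± 0.167, for KO against WT with GH. The dimmer probe set 1460188_at read 94.8, 66.6 and 81.0 in WT, 34.6, 43.7 and 37.8 in WT with GH and 91.3, 125 and 69.6 in KO with GH. Its WT arrays with GH lay below those of every other group. The log2 difference was -0.73 for GH in WT and 0.90 for KO against WT with GH, with adjusted p of 0.0653 and 0.0669.

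Ptpn11 encodes SHP2, which is recruited to the GH receptor and to many growth factor receptors and mostly passes signals on. Probe set 1451225_at read 5150, 5353 and 5882 in WT, 4657, 4730 and 4619 in KO, 5807, 4774 and 5180 in WT with GH and 4515, 4947 and 4581 in KO with GH. The KO arrays without GH were below the WT arrays, and with GH the genotypes overlapped. The log2 difference for KO against WT was -0.22 ± 0.082 without GH and -0.16 ± 0.082 with GH, with adjusted p of 0.270 and 0.351. Their mean was -0.19 ± 0.058, with an adjusted p of 0.0743. This mean was called in 5 of 25 alternatives, with adjusted p from 0.0324 to 0.426. Leaving out WT 1 gave 0.0382 and leaving out the GH-treated WT array 2 gave 0.0476, while leaving out other single arrays gave up to 0.179. For GH the difference was -0.06 in WT and 0.00 in KO, with intervals of -0.23 to 0.12 and -0.17 to 0.18.

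**Figure D3:**
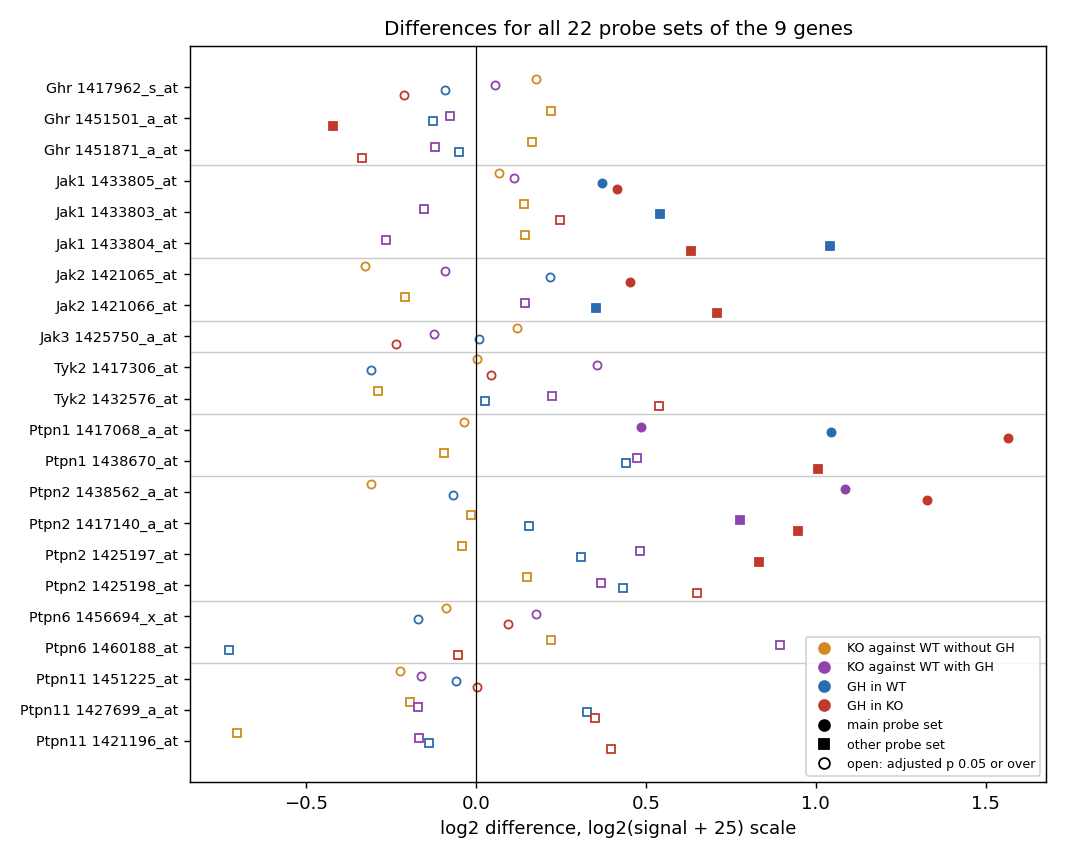
Log2 differences on the log2(signal + 25) scale for all 22 probe sets of the 9 genes in 4 comparisons (colours), with circles for main and squares for other probe sets, filled where the adjusted p is under 0.05. The Ptpn1, Ptpn2 and Jak2 probe sets lie to the right for GH in KO, the Ghr probe sets to the left, and the Jak1 probe sets spread from 0.37 to 1.04 for GH in WT.

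Counted over all 22 probe sets, 0 were called in KO against WT without GH, and 3 rose with GH, of Ptpn1 and Ptpn2. For GH in WT 5 rose and 0 fell, of Jak1, Jak2 and Ptpn1. For GH in KO 9 rose and 1 fell, the latter a Ghr probe set. The interaction and the mean genotype difference each had 1 that rose and 0 that fell, both of Ptpn2. Over all 34945 probe sets with 1 symbol, 0.538%, 2.38%, 11%, 14.1%, 0.444% and 2.52% were called in these comparisons, in the order given.

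In order of the group means of main probe sets, Ptpn1 was lowest in KO and WT, higher in WT with GH and highest in KO with GH. There was no overlap at either upper step. Jak1 was ordered WT, KO, then GH-treated WT and GH-treated KO, again with no overlap at the upper steps. The other Jak1 probe sets were lower in GH-treated KO than in GH-treated WT. Ptpn2 had the order KO, WT with GH, WT and KO with GH, and only the last step was free of overlap. For Ghr, neighbours in the order WT with GH, KO with GH, WT and KO all overlapped.

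Other genes of the pathway were read from lists, and their counts stand beside the same background shares. Of 5 STAT genes tested, Stat3, which carries interleukin 6 type signals, rose in KO against WT by 0.74 without GH and 0.87 with GH on the log2 scale. Stat3 rose with GH as well, by 0.82 in WT and 0.95 in KO, but its 4 probe sets ranged from -0.11 to 1.73 for KO against WT with GH. Its call without GH was lost when WT 3, KO 2 or KO 3 was left out, and its adjusted p reached 0.191 over the 26 alternatives. Stat5a and Stat5b were the 2 that fell in KO in both conditions. For GH, 2 STAT genes rose and 1 fell in WT, and 1 rose and 0 fell in KO.

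Of 12 SOCS and PIAS genes, which encode inhibitors of JAK and STAT signalling, 2 fell in KO without GH, Socs2 by 2.29 and Cish by 3.02 on the log2 scale. With GH, Socs3 was higher in KO than in WT by 2.22, and Socs2 fell by 1.19, a call lost with the mean of all probe sets. For GH in WT 1 rose and 3 fell, with Socs3 at 2.17 and Socs1 at -0.86. For GH in KO 3 rose and 3 fell, with Socs3 at 3.87, Cish at 2.68, Socs2 at 1.56 and Pias4 at -0.64. The 3 probe sets of Pias4 ranged from -0.76 to 0.44 there, and its call was lost with the mean of all probe sets. Socs2 was the member with an interaction past the threshold, at 1.10 (adjusted p 0.0269), and it was called in 12 of 25 alternatives, with an adjusted p of up to 0.122. Leaving out WT 2, KO 2, KO 3 or any 1 GH array ended that call. Its 6 probe sets ranged from -2.29 to 0.08 for KO against WT without GH.

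Among 21 genes for adaptors and turnover of the GH receptor, 1 rose in KO without GH, Grb10 by 0.38 on the log2 scale. Its call ended without WT 3, without KO 2 and with its probe sets averaged. It also ended with only the 6 arrays of the comparison and with eBayes run without trend and robust settings. The adjusted p of Grb10 reached 0.555 over the alternatives, and its 3 probe sets ranged from 0.04 to 0.38. With GH, 2 fell in KO against WT, the docking proteins Gab1 by 0.82 and Irs1 by 0.52. For GH, 4 rose and 3 fell in WT, with Gab1 at 0.91 and Cblb, a ubiquitin ligase, at 0.79. In KO 3 rose and 6 fell, with Sh2b3 at 0.55 and Stam at -0.63. The 4 probe sets of Stam ranged from -0.63 to 0.63, and its call was lost when its probe sets were averaged. The interaction of Gab1 was -0.70 (adjusted p 0.0219) and was called in 16 of 25 alternatives, with an adjusted p of up to 0.101. Leaving out WT 3, KO 2 or any 1 GH array other than the second of WT ended that call.

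Of 16 other JAK-linked receptor genes, 5 rose and 2 fell with GH in WT, and 8 rose and 3 fell in KO. Osmr, the oncostatin M receptor, rose by 1.47 and 1.49 on the log2 scale, and Il6st, the shared chain of interleukin 6 type receptors, by 0.50 and 0.65. The main probe set of Il6st was the highest of 4, the lowest being at -0.10 in both genotypes, and both calls were lost when its probe sets were averaged. The median of the list was 0.30 in WT and 0.54 in KO, beside -0.06 over all genes. In KO against WT 1 fell without GH, Lifr by 0.86, and 0 were called with GH. Among 15 other tyrosine phosphatase genes, 4 fell and 0 rose with GH in WT, and 3 fell and 1 rose in KO. Ptpn4 fell by 0.79 and 1.28, and Ptpn12 rose in KO by 0.59. Ptpn12 was also the 1 gene of this list called in KO against WT with GH, at 0.59, and 0 were called without GH. Igf1, a classic GH target, was not called in any comparison, with a log2 difference of -0.49 for KO against WT without GH (adjusted p 0.335). The actin ratio as a covariate ended most of these calls in the comparisons that involve GH. It ended those of Stat3, Stat5a, Socs1, Socs3, Cish, Pias4, Sh2b3, Stam, Irs1, Ptpn4 and Ptpn12, that of Il6st in KO, that of Socs2 in KO against WT, and the interactions of Socs2 and Gab1. The calls of Osmr and of Gab1 in the 2-group comparisons, of Cblb and Il6st in WT, of Socs2 for GH in KO and of Stat5b in KO against WT were kept.

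Markers of other cells moved with GH too, and their part in the results was not tested. Of all genes, 11.8% fell and 7.33% rose with GH in WT, and 15.4% fell and 8.93% rose in KO. The summed signal of 7 leukocyte markers was 2605 to 3250 on the arrays without GH and 1917 to 2210 with GH, and 3 of 7 fell in each genotype. That of 6 neutrophil markers was 291 to 382 without GH, 2693 to 2730 in WT with GH and 1380 to 1662 in KO with GH. That of 10 muscle markers was 468889 to 584376 in KO and 391849 to 410862 in KO with GH, where 7 fell and 1 rose. That of 7 macrophage markers was 8714 to 15424 without GH and 7112 to 7625 with GH, where 3 fell and 1 rose in WT and 5 fell and 1 rose in KO. Of 5 adipocyte and 6 endothelial markers, 3 each fell with GH in each genotype. The summed signal of 4 hepatocyte markers was 177 to 212 in WT and 477 to 530 in WT with GH. In KO it was 204 to 504, and in KO with GH 250 to 347. That of 5 fibroblast markers was 79046 to 85792 without GH and 65403 to 78108 with GH. For 3 red cell markers it was 255 to 513 without GH, 429 to 489 in WT with GH and 545 to 640 in KO with GH. Between the genotypes without GH 1 adipocyte marker rose in KO, where 0.774% of all genes rose. With GH 2 of 4 neutrophil markers tested fell and 1 endothelial marker rose in KO, beside 2.11% and 2.42% of all genes.

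**Figure D4:**
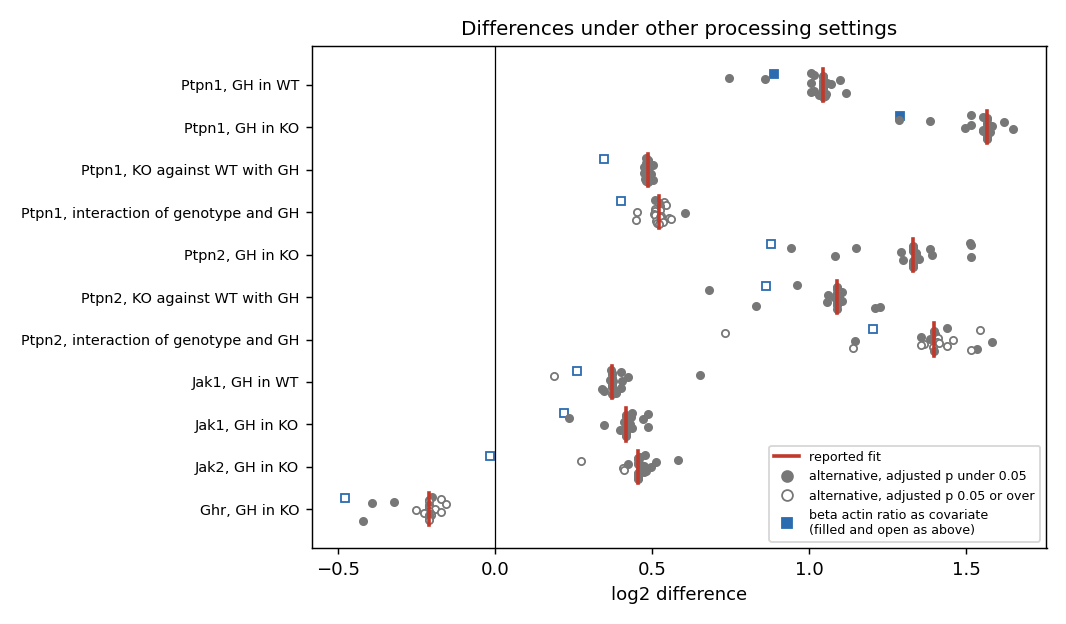
Log2 differences of Ptpn1, Ptpn2, Jak1, Jak2 and Ghr under each alternative (points, filled where the adjusted p is under 0.05, squares with the 3′ to 5′ beta actin ratio as a covariate) beside the reported value (red line). Ptpn1 stays filled for GH in WT and in KO, and Jak2 for GH in KO runs from -0.02 to 0.58.

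By likeness of pattern over 12 arrays, the genes closest to Ghr were Serinc2 (Pearson r of log2 values 0.93), Bsg (0.928), Itgb1bp2 (0.912), Dcun1d1 (0.908) and Mgl2 (0.903), out of 12653 compared. Those closest to Jak2 were Procr (0.949), Tox4 (0.92), Cyp1b1 (0.893), Ppp1r12c (0.89) and Musk (0.889). After removing group means r was 0.761 to 0.928 for the Ghr genes and 0.67 to 0.835 for the Jak2 genes. These arrays share their groups and scaling, and the values are a description with no test.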

How the data were processed

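Total RNA was labelled with biotin and hybridized to 1-colour Affymetrix mouse arrays, 1 for each of 12 samples. The authors' deposited values are MAS5 signal, a linear intensity, and MAS5 is named per the submitters' processing notes with a version not given in the sources used here. Each array's mean without the lowest and highest 2% of probe sets was 500.0. With 3 arrays a group, their number limits precision. No detection calls were used here.

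Tests used log2(signal + 25), with 25 set near the pooled 25th percentile. Control probe sets (64) and probe sets with several (932) or no symbols (9160) were left out. Genes with a mean above the 40th percentile of probe sets were kept (12654). All comparisons came from limma 3.58.1 with statmod 1.5.0 in R 4.3.3, with 1 mean per group, 8 residual degrees of freedom, a mean trend and robust eBayes. P-values are 2-sided, with Benjamini-Hochberg adjustment across the 12654 genes and a threshold of 0.05. "Rose" and "fell" mean past it, and fold changes are on the log2(value + 25) scale, which understates those of dim probe sets. Other probe sets were tested in a fit of all 34945. The code was tested on simulated data.

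The members and lists were chosen with earlier results of these data known. All 9 members are named in every comparison. From each pathway list up to 4 genes per comparison were named, and the 5 genes most like Ghr and Jak2 by Pearson r. The list genes named were not always those with the smallest p. Passed over for rises with a larger p were the falls of Stat5b (-0.65), Sirpa (-0.83) and Il10rb (-0.88) for GH in WT. For GH in KO the fall of Ptpn18 (-1.04) was passed over. Averaging probe sets ended the calls of Il10rb and Ptpn18, and the actin ratio as a covariate ended those of Stat5b and Ptpn18. Alternatives were other pseudocounts (5 and the pooled median), filters, normalizations, probe set choices, models and arrays left out.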

Additional observations from a re-analysis of the deposited data

How the results depend on the processing

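The 26 alternatives were 12 that left out 1 array each, 12 other planned ones and 2 added after seeing the data (median centring over the genes kept, and leaving out WT 1 and KO 3 together). The count of members called for the interaction was 1 with a pseudocount at the pooled median and without the filter on low signal. The same count came with the filter raised to the 60th percentile, with quantile normalization and with median centring of either kind. It was also 1 without probe sets named _x_at or _s_at, where some genes are read from another probe set. It was 2 with array weights and 0 to 2 when 1 array was left out. That for the mean genotype difference was 1 with the higher pseudocount, the stricter filter, the mean of all probe sets, median centring over the genes kept, or without WT 1 and KO 3. It was 2 with quantile normalization and with array weights, and 0 to 1 when 1 array was left out.

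With the actin ratio as a covariate the counts were 0 for KO against WT with GH, 1 for GH in WT and 1 for GH in KO, and Jak2 for GH in KO reversed to -0.016. The actin ratio moved with the groups, and calls over all genes fell too, from 2416 to 487 for GH in WT, from 3078 to 123 for GH in KO and from 573 to 144 for KO against WT with GH. With only the 6 arrays of a comparison, 39 genes were called in KO against WT without GH (184 over all arrays) and 1300 with GH (573). Median centring over all probe sets moved the median of all genes for GH to -0.24 in both genotypes, and 4429 genes were called in WT and 4838 in KO. The share of calls that were higher was then 11.1% in WT and 13.3% in KO, against 38.4% and 36.7% as reported. With centring over the genes kept it was 50.4% and 49.9%. Under the former, Ghr fell in WT by 0.28 and in KO by 0.39, and Tyk2 fell in WT by 0.49. For GH in KO, Ghr was called in 6 of 26 alternatives, with adjusted p from 0.00227 to 0.317. Among them was the fit without _x_at and _s_at probe sets, in which Ghr was read from 1451501_a_at. Ptpn6 fell with GH in WT without _x_at and _s_at probe sets, by 0.73 (adjusted p 0.0497). In that fit its dim probe set 1460188_at took the place of the main one. Jak2 rose with GH in WT by 0.29 when all its probe sets were averaged (adjusted p 0.0445). No paired analysis was possible because the labels give the groups no shared replicate numbers.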
